A study of Mus musculus with 2 samples.

Results

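The genes described here build the actin cytoskeleton and the integrin adhesions of mouse NIH 3T3 fibroblasts. A list of 52 gene symbols chose them, and a probe set counted where the platform's annotation gave it exactly 1 symbol and that symbol was on the list. Of the 52 genes, 48 had such a probe set, out of 12393 genes named in this way on the arrays, and the other 4 (Arpc1b, Arpc3, Actr2 and Ptk2) were not analysed here. The list was read by role, and the groups described are contractile genes (15 of 15 with a probe set), actin turnover genes (9 of 12), adhesion genes (16 of 17) and other filaments (3 of 3).

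NIH 3T3 is a fibroblast line derived from mouse embryos. RNA was compared between cells transfected with a plasmid for a C-terminally deleted ATCE1 (ATCE1-C-del) and cells given the same pHA-CMV vector empty, both by Lipofectamine and both harvested after 48 hours. ATCE1 is a transcription factor of the CREB and ATF family, now named Creb3l4, and the deleted form is described as nuclear. Each condition was 1 Affymetrix array, so the differences have no replicate check and nothing could be tested. The share of cells that took up the plasmid is not stated in the labels, and in bulk RNA fewer cells carrying a transcript and less of it per cell cannot be told apart.

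Actin filaments grow from a pool of monomers that profilin feeds and thymosin holds back, branch at the Arp2/3 complex, stop at capping protein and are taken apart by cofilin and destrin. Tropomyosins, calponins and transgelins line the filaments, and myosin II pulls on them. Integrins, each an alpha and a beta subunit, tie the filaments to the extracellular matrix through talin, vinculin, paxillin and zyxin. Serum response factor, which senses free actin through its partner Mrtfa, binds the CArG box in the promoters of many of these genes, and CREB and ATF proteins bind the palindrome TGACGTCA or its core TGACG.

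Signals are linear MAS5 values, and a ratio is the log2 of the ATCE1-C-del signal over the empty vector signal after each array was scaled to its own trimmed mean. A signal under its array's median (77.4 in ATCE1-C-del cells and 75.9 in empty vector cells) was raised to that median, called the floor, and a gene was measured if it reached the floor on at least 1 array. Where a gene had several probe sets, the brightest stood for it. Across all genes with a pair of probe sets measured on both arrays (2451 genes), the ratio of 1 probe set carried an SD of 0.20 on the log2 scale. This is the only spread these arrays give. It comes from probe sets of 1 gene on the same arrays and holds no variation between cultures. The single probe set of Creb3l4 read 18.0 in ATCE1-C-del cells and 20.7 in empty vector cells, under both floors, so it gives no check of which cells carried the plasmid.

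As a check of the labelled cell type, all 14 fibroblast markers on the arrays were measured, with a summed signal of 39932 in ATCE1-C-del cells and 39727 in empty vector cells. None of 10 skeletal and cardiac muscle, 7 epithelial, 5 endothelial or 2 adipocyte markers reached the floor. Of 7 smooth muscle markers only Smtn did, at 163 and 174, while Myh11, the smooth muscle myosin, read 13.4 and 1.5. Of 6 macrophage markers, Cd14 read 116 in ATCE1-C-del cells and 104 in empty vector cells. Cd68 read 81.5 and 50.8, the latter under the floor. The others were under both floors. Csf1r read 76.5 and 59.1, Adgre1 13.3 and 14.9, Ptprc 9.5 and 3.0 and Itgam 2.0 and 0.5. The summed signal over the macrophage list was 299 in ATCE1-C-del cells and 232 in empty vector cells. The part of such cells in the results was not tested.

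Of the 48 genes, 45 were measured, 44 on both arrays and Itga3 on 1. Most of them differed little between the cultures. Of the 45, 34 lay within 1.1-fold, beside 3393 of all 6807 measured genes. None of the 45 reached 1.5-fold in either direction, a size that 0.926% of all measured genes reached upward and 1.07% downward. At 1.2-fold, the size used here to call a gene higher or lower, Pfn1 was higher (1 of 45, against 9.4% of all measured genes) and Tagln was lower (1 of 45, against 12.3%). Ratios spread less among genes of high signal, and 37 of the 45 were above the 75th percentile of measured genes by mean signal. Among all 1702 such genes, 4.41% were higher by 1.2-fold and 6.23% lower, beside 1 and 0 of the 37. At 1.5-fold these shares were 0.235% and 0.353%, beside 0 and 0 of the 37. At 1.1-fold, 5 of the 45 were higher (23.1% of all measured genes) and 6 lower (27.0%), and 5 and 3 of the 37 (18.3% and 17.7% of the high-signal genes). The other 29 of the 37 lay within 1.1-fold, beside 1089 of the 1702 high-signal genes.

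The median ratio over the 45 genes was 0.048, with 30 higher and 15 lower, beside a median of -0.0060 over all measured genes, of which 48.7% were higher. The 30 include Itga3, whose side was fixed by its being measured on the ATCE1-C-del array alone. Taken as the median of the 45 genes minus that of all measured genes, the difference was 0.054. Array medians shift every ratio alike and so cannot change this difference. It narrowed to 0.032 with quantile normalization and 0.023 with lowess. It was 0.013 with the mean over probe sets and 0.015 on second-brightest ones, and without replicates it was not tested. Scaling to the 18 probe sets of the hybridisation controls moved the median of all measured genes to 0.27 and that of the 45 genes to 0.32. Each ratio thus compares a gene with the bulk of measured genes.

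**Figure D1:**
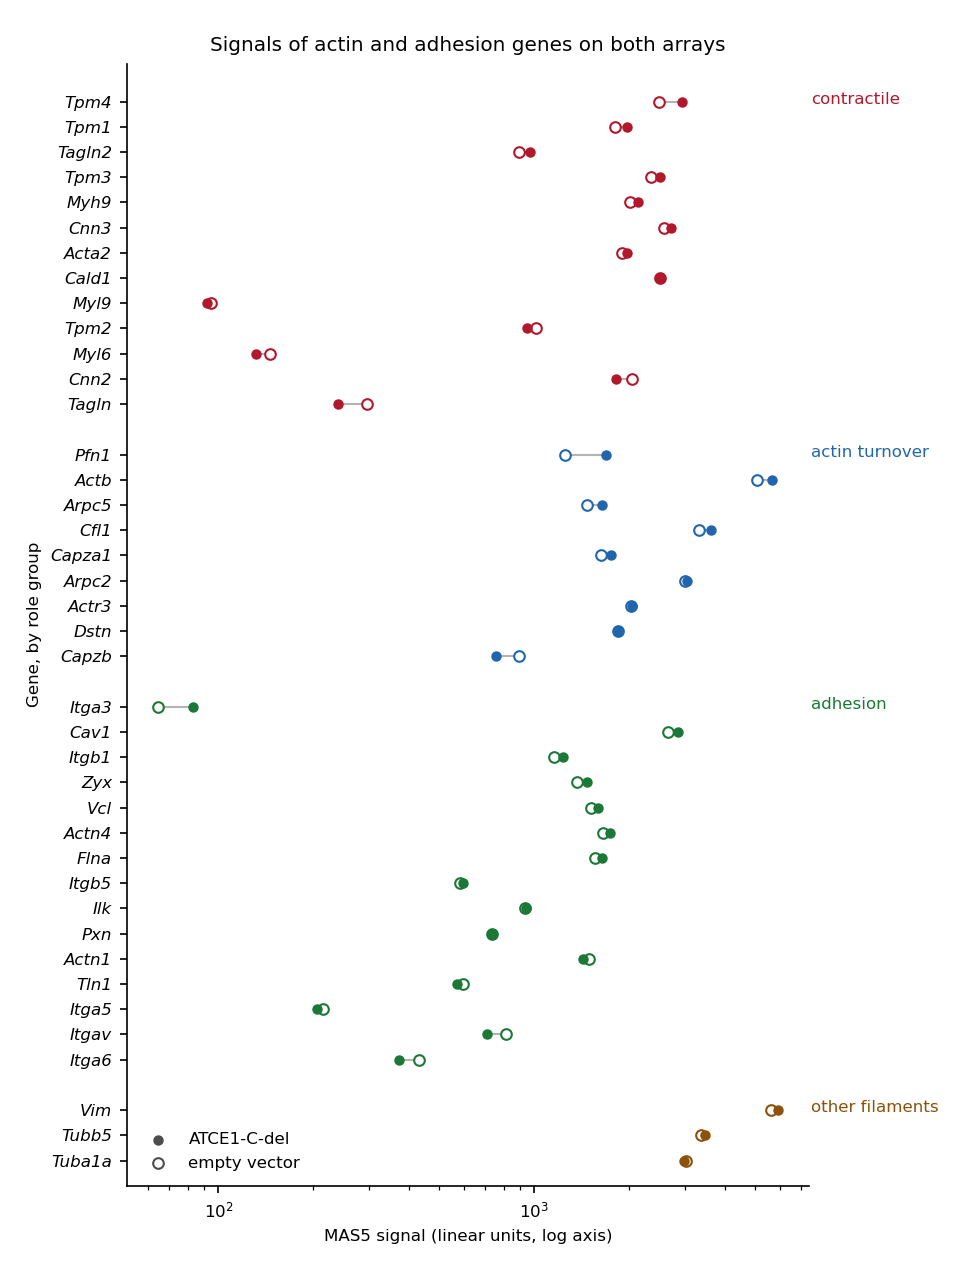
MAS5 signals (horizontal log axis) of 40 of the measured genes, with 1 row per gene, grouped by role and ordered by ratio within a group. Filled points are the ATCE1-C-del array and open points the empty vector array, with no error bars since each condition is 1 array; the points of most genes touch or overlap, while those of Pfn1, Itga3 and Tagln are the farthest apart.

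The contractile group had 13 measured genes, 8 higher and 5 lower, with a median ratio of 0.048. The median lay at 0.019 with array medians, 0.027 with quantile normalization and 0.017 with lowess, and turned to -0.040 when all measured probe sets of a gene were averaged. Tagln, which encodes the actin-binding protein transgelin, read 239 in ATCE1-C-del cells and 296 in empty vector cells. It was thus the lower of the pair with ATCE1-C-del, by 1.24-fold (ratio -0.31), on its only probe set. Its ratio was -0.34 with array medians, -0.28 with quantile normalization and -0.29 with lowess. Tagln2, the related transgelin 2, went the other way. Its signals were 969 in ATCE1-C-del cells and 893 in empty vector cells, and its second probe set read 309 and 257, so that the ratios were 0.12 and 0.27.

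The smooth muscle forms were mixed or absent. Acta2, the alpha actin of smooth muscle and of activated fibroblasts, read 1962 in ATCE1-C-del cells and 1898 in empty vector cells, a ratio of 0.048. That probe set is of a type that can match several transcripts, and the other Acta2 probe set read 5.3 and 0.5, under the floors. Actg2, the gamma actin of smooth muscle, read 28.0 and 19.3, and Cnn1, the smooth muscle calponin, read 2.2 and 2.6, all under the floors. Myl9, a regulatory light chain of myosin II, read 91.9 and 94.5, just over the floors, with a ratio of -0.040. These genes give no common direction.

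Among the calponins outside muscle, Cnn2 read 1807 in ATCE1-C-del cells and 2037 in empty vector cells, a ratio of -0.17 on 1 probe set. Cnn3 read 2715 and 2582 on its brightest probe set (ratio 0.073), but the other 4 measured on both arrays had ratios of -0.37, -0.0023, -0.19 and -0.15. Cnn3 was therefore higher on 1 of 5 probe sets, and its mean over them was -0.13. This was the clearest case in the contractile group where the choice of probe set decided the sign.

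The tropomyosins, coiled-coil proteins that wrap the filament, had 3 of 4 genes higher and a median ratio of 0.11, which stayed above 0 with array medians, quantile normalization and lowess (0.082, 0.075 and 0.073). It shrank to 0.026 with the mean over probe sets and to 0.017 on second-brightest ones (3 genes). Tpm4 read 2932 in ATCE1-C-del cells and 2481 in empty vector cells, 1.18-fold higher (ratio 0.24) on its only probe set. Tpm1 read 1966 and 1804 (ratio 0.12), with further probe sets at 0.12 and -0.16. Tpm3 read 2497 and 2333 (ratio 0.098), with further ones measured on both arrays at 0.017 and -0.12. Tpm2 was the one lower gene, at 946 in ATCE1-C-del cells and 1009 in empty vector cells (ratio -0.093), and its other probe sets lay at -0.0023 and -0.41. All 3 measured probe sets of Tpm2 were on the lower side.

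The motor and its partners gave no common direction. Myh9, the heavy chain of non-muscle myosin IIA, read 2126 in ATCE1-C-del cells and 2010 in empty vector cells (ratio 0.081), and its other probe sets ran from -0.21 to 0.20. Cald1, which encodes the filament-binding protein caldesmon, read 2501 and 2494 (ratio 0.0037), a sign that turned with array medians, quantile normalization and lowess, and its other probe sets lay at -0.075 and -0.17. Myl6, the essential light chain, had 1 probe set that named it alone, at 131 in ATCE1-C-del cells and 146 in empty vector cells (ratio -0.15). A further 2 probe sets that list Myl6 with other symbols were not used, and they were nearly level, at 2596 and 2529 and at 2236 and 2282. The lower value of Myl6 thus rests on the probe set with its symbol alone.

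The actin turnover group had 9 measured genes, 7 higher and 2 lower, and a median ratio of 0.11. The median was 0.077 with array medians, 0.053 with quantile normalization and 0.057 with lowess, each with 5 higher and 4 lower, and on second-brightest probe sets (5 genes) it was -0.063. Pfn1, which encodes profilin 1, the protein that delivers actin monomers to growing filament ends, read 1682 in ATCE1-C-del cells and 1253 in empty vector cells. This gap, 1.34-fold (ratio 0.43), was the highest of the 45 genes, and Pfn1 has no other probe set on these arrays to set beside it. The SD of 1 probe set holds no variation between cultures, so it cannot gauge this gap. The ratio was 0.40 with array medians or quantile normalization and 0.41 with lowess.

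Actb, which encodes the beta actin of non-muscle cells, read 5669 in ATCE1-C-del cells and 5051 in empty vector cells (ratio 0.17). Its second probe set read only 170.5 and 105, with a ratio of 0.70, the widest gap of any probe set of these genes. A further 3 control probe sets read Actb along the transcript, with signals of 5558.5 and 5293 toward the 3' end, 5876 and 5108 in the middle and 5203 and 4705 toward the 5' end. All 5 were higher with ATCE1-C-del, the controls at ratios of 0.071, 0.20 and 0.15. The 3' to 5' ratio of the controls was 1.07 in ATCE1-C-del cells and 1.13 in empty vector cells, and the part of this difference in the Actb ratios was not tested. With quantile normalization and lowess the ratio of Actb shrank to 0.058 and 0.062.

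Cofilin and the Arp2/3 subunits were level or slightly higher. Cfl1, the cofilin that severs filaments, read 3626 in ATCE1-C-del cells and 3314 in empty vector cells (ratio 0.13), and its second probe set read 2475 and 2078 (ratio 0.25). Dstn, which encodes destrin, a relative of cofilin, read 1839 and 1846 (ratio -0.0054). Arpc5, a subunit of Arp2/3, read 1638 and 1463 (ratio 0.16). Its partners Arpc2, at 3036 in ATCE1-C-del cells and 2988 in empty vector cells (ratio 0.023), and Actr3, at 2036 and 2028 (ratio 0.0055), were level, and both took the opposite sign with array medians, quantile normalization and lowess.

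The 2 subunits of capping protein, which work as a dimer, differed in sign. Capza1, the alpha 1 subunit, read 1753 in ATCE1-C-del cells and 1629 in empty vector cells (ratio 0.11), and its second probe set lay at -0.10. Capzb, the beta subunit, read 758 and 897 (ratio -0.24), the lowest of the turnover group at 1.18-fold. Its other probe sets lay at -0.12 and 0.25, so that the mean over all 3 was -0.039. Neither gene kept 1 sign over its probe sets.

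**Figure D2:**
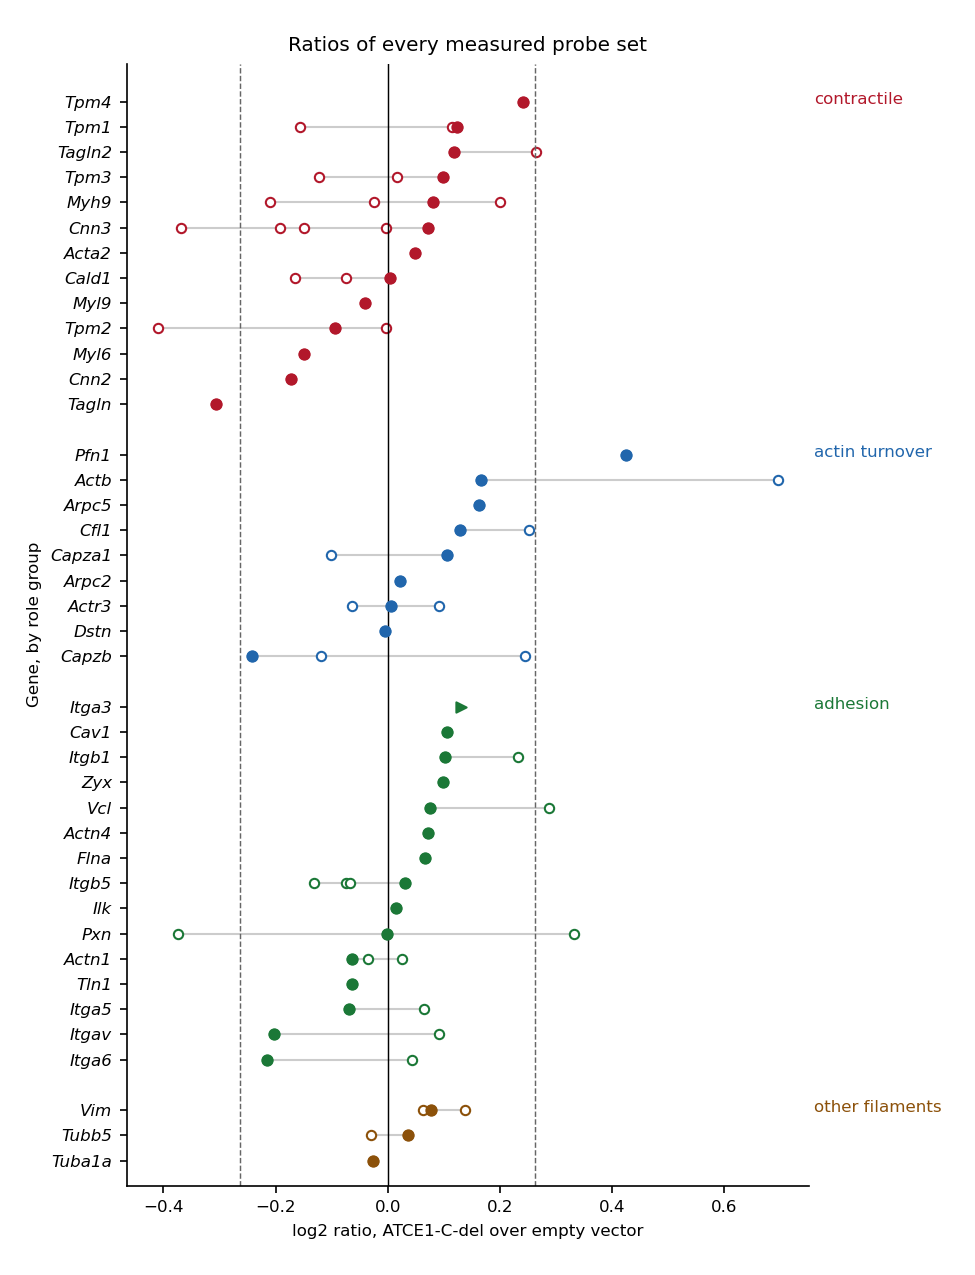
Log2 ratio (ATCE1-C-del cells over empty vector cells) for every probe set, measured on both arrays, of 40 genes, with 1 row per gene. Filled points are the probe set that stands for the gene, open points the others, the triangle is the lower bound of Itga3, and the dashed lines mark 1.2-fold; only Pfn1 and Tagln have a filled point beyond these lines, while the open points of Actb, Tpm2, Pxn and Cnn3 reach past them, among others.

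The adhesion group had 15 measured genes, 9 higher and 6 lower, and a median ratio of 0.030, at 0.0010 with array medians, 0.046 with quantile normalization and 0.048 with lowess. None of its genes reached 1.2-fold. The 6 measured integrin subunits were 3 higher and 3 lower with a median of -0.020, which turned to 0.066 on second-brightest probe sets (4 of 5 higher) and was 0.030 with a 25th percentile floor (7 genes). Itga3 counts as higher both here and in the whole group. It was measured only through the ATCE1-C-del array, so the floor fixed its side. Itga6, a laminin receptor subunit, read 372 in ATCE1-C-del cells and 432 in empty vector cells (ratio -0.22), and its second probe set lay at 0.044. Itgav, the alpha subunit of several vitronectin and fibronectin receptors, read 707 and 814 (ratio -0.20), and its second probe set lay at 0.091. Both were the lowest of the group on 1 probe set and slightly above 0 on the other.

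Itgb1, the beta subunit shared by most matrix-binding integrins, was higher on both of its probe sets measured on both arrays. They read 1236 in ATCE1-C-del cells and 1152 in empty vector cells (ratio 0.10) and 1216 and 1036 (ratio 0.23). Itga5, the partner of Itgb1 in the fibronectin receptor, read 205 and 215 (ratio -0.069), with a second probe set at 0.066. Itgb5, a partner of Itgav, read 594.5 and 582 (ratio 0.030), whereas its other 3 probe sets lay between -0.13 and -0.068. Itga3, of a laminin receptor, read 83.1 in ATCE1-C-del cells and 64.3 in empty vector cells, the latter under the floor, and was at least 1.09-fold higher. Itgb3, another partner of Itgav, read 21.2 and 15.4, under both floors.

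The 9 measured adhesion genes other than integrin subunits, called the plaque here, were 6 higher and 3 lower with a median ratio of 0.066. This median was 0.037 with array medians, 0.046 with quantile normalization and 0.048 with lowess. It was 0.0016 on probe sets of 1 transcript (3 of 6 higher) and turned to -0.036 on second-brightest ones (1 of 3 higher). All 9 lay within 1.1-fold. Cav1, the coat protein of caveolae, is in this set only as a non-integrin gene of the adhesion list. It was the highest of the set and read 2843 in ATCE1-C-del cells and 2643 in empty vector cells (ratio 0.11). Zyx, which encodes the tension-sensitive adaptor zyxin, read 1462.5 and 1365 (ratio 0.099). Vcl, which encodes vinculin, read 1590.0 and 1509 (ratio 0.076), and its second probe set read 354 and 290.2 (ratio 0.29). Vinculin was thus on the higher side on both, and past 1.2-fold on the dimmer.

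Talin, paxillin and the alpha-actinins did not share a direction. Tln1, the talin that activates integrins, read 570 in ATCE1-C-del cells and 595 in empty vector cells (ratio -0.063). Actn1, an alpha-actinin that crosslinks filaments, read 1430.4 and 1494 (ratio -0.063), and Actn4, its close relative, read 1737 and 1652.5 (ratio 0.072). Pxn, which encodes paxillin, read 737 on both arrays (ratio -0.0004), but its dimmer probe sets lay at -0.37 and 0.33. That range of 0.71 was the widest among the 26 listed genes with at least 2 probe sets measured on both arrays. Ilk, the integrin-linked pseudokinase, had a ratio of 0.014 and Flna, the filament crosslinker filamin A, 0.066. The sign of Ilk turned with array medians and that of Pxn with quantile normalization and lowess.

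Cdc42, which directs filopodia and polarity, read 2778 in ATCE1-C-del cells and 2360.1 in empty vector cells, 1.18-fold higher (ratio 0.24). Its other probe sets read 1487 and 1548 and 1354.5 and 1371, with ratios of -0.057 and -0.018, so the gap was seen on 1 of 3. Rac1, which drives lamellipodia, read 3084 and 2830 (ratio 0.12), and its second probe set gave 0.13. Both probe sets of Rac1 thus gave nearly the same ratio.

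Of the other filaments, Vim, the intermediate filament gene of fibroblasts, read 5914 in ATCE1-C-del cells and 5607 in empty vector cells (ratio 0.077), with further probe sets at 0.063 and 0.14. Its sign turned with quantile normalization (-0.051) and lowess (-0.034). Tubb5 and Tuba1a, of the microtubules, had ratios of 0.036 and -0.027, and Tubb5 likewise turned, to -0.045 and -0.036. The median of these 3 genes was 0.036 and turned to -0.051 with quantile normalization and -0.036 with lowess.

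Side by side, the medians were 0.048 for contractile, 0.11 for actin turnover and 0.030 for adhesion genes. With quantile normalization the 3 medians were closer, at 0.027, 0.053 and 0.046. The order was not kept by other probe sets either: on second-brightest ones the medians were 0.017, -0.063 and 0.055, over 7, 5 and 8 genes. Without a replicate the difference between the groups was not tested. The SD over genes was 0.15 for contractile, 0.18 for actin turnover and 0.11 for adhesion genes, and within the adhesion group it was 0.15 for integrin subunits and 0.065 for the plaque.

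**Figure D3:**
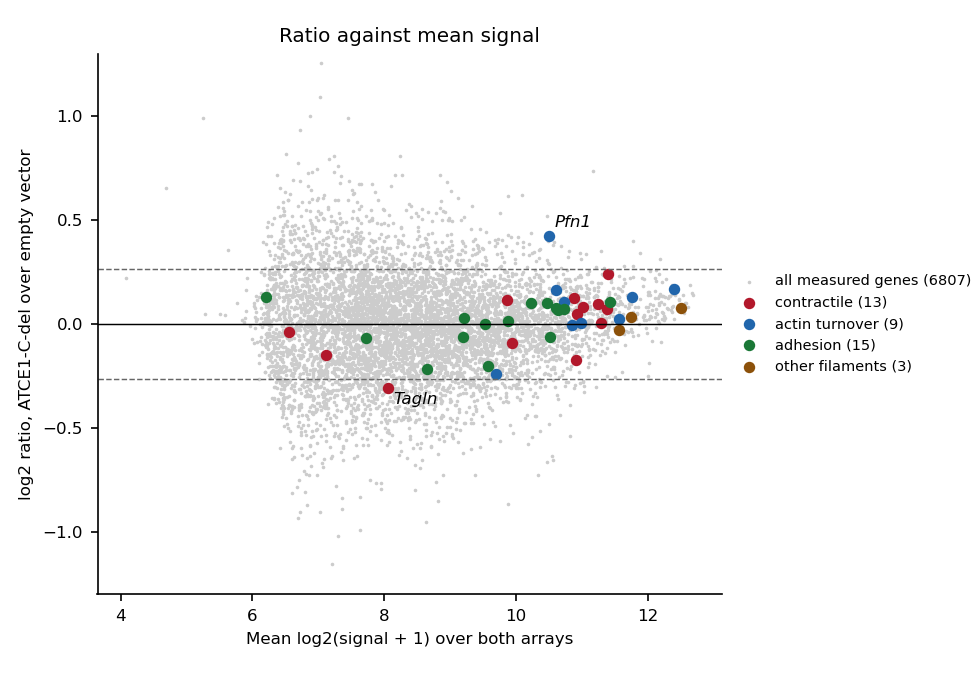
Log2 ratio (ATCE1-C-del cells over empty vector cells) (vertical axis) against mean log2(signal + 1) over both arrays (horizontal axis) for the 6807 measured genes in grey and 40 genes in colour by role, with dashed lines at 1.2-fold. The grey cloud narrows toward high signal, where most of the coloured points lie, and 2 genes outside the list fall beyond the vertical axis limit of 1.3.

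Of the 26 genes with at least 2 probe sets measured on both arrays, 8 were higher on each of them (Tagln2, Actb, Cfl1, Itgb1, Vcl, Rac1 and Vim among them), Tpm2 was lower on each, and 17 had probe sets on both sides. The brightest pair had the same sign in 15 of the 26 genes (57.7%), beside 60.2% of all 2451 genes with such a pair. The ratios of this pair correlated with an r of 0.30 across the 26 genes, which share both arrays and are not independent replicates, and with an r of 0.29 across all 2451. The SD of 1 probe set was 0.15 in these genes and 0.16 in all high-signal genes with a pair (943 genes).

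Promoters were looked at because the plasmid encodes a DNA-binding factor of the CREB and ATF family and because these genes are known for the CArG box. RefSeq windows from 250 bases before to 50 after the annotated start (GRCm38.p6) were at hand for 44 of the 52 genes, in 51 windows. Tagln, the only gene called lower, had no window and was not searched, and neither was Actb. The stretches below are the 250 bases before the start, 5' to 3', for Pfn1, the only gene called higher, and for 3 genes with a motif before the start. Capitals mark a CArG box, except in the first Myl6 stretch, where they mark TGACGTCA, and Pfn1 held none of the motifs searched.
Pfn1 (chr11:70654651-70654900, minus strand): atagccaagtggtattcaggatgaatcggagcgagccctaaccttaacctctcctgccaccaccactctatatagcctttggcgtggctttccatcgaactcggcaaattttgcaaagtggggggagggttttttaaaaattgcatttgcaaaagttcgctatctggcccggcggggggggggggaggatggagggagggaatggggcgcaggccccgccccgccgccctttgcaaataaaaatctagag
Myl6 (chr10:128493887-128494136, minus strand): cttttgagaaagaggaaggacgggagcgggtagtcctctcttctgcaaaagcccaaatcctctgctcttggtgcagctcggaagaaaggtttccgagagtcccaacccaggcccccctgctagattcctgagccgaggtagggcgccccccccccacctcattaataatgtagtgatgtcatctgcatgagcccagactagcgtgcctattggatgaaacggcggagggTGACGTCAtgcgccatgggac
Myl6 (chr10:128493010-128493259, minus strand): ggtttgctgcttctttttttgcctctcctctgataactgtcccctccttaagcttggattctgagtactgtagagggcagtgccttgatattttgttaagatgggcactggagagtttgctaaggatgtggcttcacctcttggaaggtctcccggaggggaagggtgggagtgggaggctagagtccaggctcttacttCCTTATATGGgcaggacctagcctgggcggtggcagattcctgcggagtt
Cnn2 (chr10:79988350-79988599, plus strand): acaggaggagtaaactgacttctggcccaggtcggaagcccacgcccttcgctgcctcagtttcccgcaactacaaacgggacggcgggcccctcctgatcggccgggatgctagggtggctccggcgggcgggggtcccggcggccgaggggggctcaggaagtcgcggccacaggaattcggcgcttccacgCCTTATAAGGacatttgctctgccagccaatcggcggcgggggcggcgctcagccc
Vcl (chr14:20929148-20929397, plus strand): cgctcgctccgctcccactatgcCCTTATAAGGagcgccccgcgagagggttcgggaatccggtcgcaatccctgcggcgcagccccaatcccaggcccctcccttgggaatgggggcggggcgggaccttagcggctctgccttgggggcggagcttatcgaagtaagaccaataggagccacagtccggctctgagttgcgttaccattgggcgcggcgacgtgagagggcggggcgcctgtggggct

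Searched on both strands, the CArG box was found in 4 of the 51 windows (7.84%, against 1.63% of all 32851 windows): those of Cnn2, Myl6, Myl9 and Vcl. The measured ratios of these genes were -0.17, -0.15, -0.040 and 0.076. Of all measured genes with a window, the 85 with a CArG box had 43 higher and 42 lower. Their median was 0.010, beside -0.0062 for the 5542 without one. TGACGTCA lay in 2 windows (3.92%, against 1.79%), those of Myl6 and Cdc42, the latter after the start, and their ratios were -0.15 and 0.24, the former on the single Myl6 probe set described above. The shorter TGACG, which every TGACGTCA contains, lay in 15 windows (29.4%, against 20.8%). The 13 measured genes with TGACG had 9 higher and a median ratio of 0.023, and the 27 without it had 19 higher and a median of 0.066. Over all measured genes with a window, the medians were 0.0060 with TGACG (2196 genes) and -0.012 without (3431 genes). Such a match is only a match of letters, and the ratios of genes with and without it overlapped.

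A wider list of 136 further genes of the same pathways held 91 measured genes, 43 higher and 48 lower, with a median ratio of -0.018. At 1.2-fold, 5 were higher and 9 lower (9.4% and 12.3% of all measured genes), and at 1.5-fold 0 were higher and 3 lower (0.926% and 1.07%). Twf2, which encodes the monomer-binding protein twinfilin 2, read 94.1 in ATCE1-C-del cells and 176 in empty vector cells, 1.87-fold lower (ratio -0.90), but its other probe set lay at -0.14. Tubb2b, a beta tubulin, read 120 and 222 (ratio -0.89) on its only measured probe set. Arhgap5, which encodes a GTPase-activating protein, read 361 and 557 (ratio -0.63), with its other probe set at -0.19. All 3 were lower on every probe set measured on both arrays, and less so on the second where there was one.

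In the sublists, nucleation and turnover genes (28 measured) ran from Twf2 to Diaph3, a formin, which read 160.0 in ATCE1-C-del cells and 123 in empty vector cells (ratio 0.38). Crosslinkers and membrane linkers (14 measured) ran from Sptbn1, a spectrin, at -0.10 to Pdlim1, which encodes a PDZ and LIM domain adaptor of alpha-actinin. Pdlim1 read 430 and 297 and was 1.45-fold higher (ratio 0.53), on its only measured probe set. Further adhesion genes (18 measured) ran from Tns1, which encodes tensin 1, at 250.2 and 318 (ratio -0.34), with its other probe set at -0.76, to Cavin1, a caveolar coat gene, at 486 and 412 (ratio 0.24), with its other one at 0.32. Tns1 was thus lower and Cavin1 higher on both of their probe sets.

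Srf, which encodes serum response factor, read 226 in ATCE1-C-del cells and 191 in empty vector cells (ratio 0.25), with a second probe set at 0.36. Mrtfa, the actin-sensing partner of serum response factor, read 204.5 and 234 (ratio -0.20). Further actin and myosin genes (5 measured) ran from Myl12b, a regulatory light chain, at -0.16 to Actg1, the gamma actin of non-muscle cells, which read 5337 and 4860 (ratio 0.135). The tubulin and intermediate filament genes (8 measured) ran from Tubb2b to Tubb4b, at 1621 and 1348 (ratio 0.27). The medians of these 5 sublists lay between -0.084 and 0.11.

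**Figure D4:**
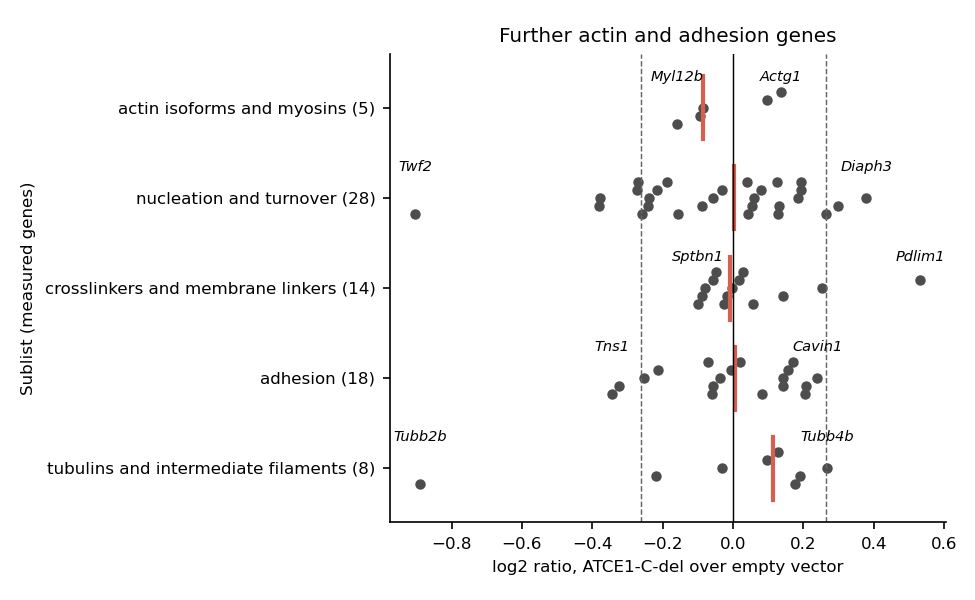
Log2 ratio (ATCE1-C-del cells over empty vector cells) (horizontal axis) for 73 measured genes of the wider list in 5 sublists, with the number measured in brackets. Each point is 1 gene on its brightest probe set (vertical offsets only separate points), red bars are sublist medians, dashed lines mark 1.2-fold, and the lowest and highest gene of each sublist are named; Twf2 and Tubb2b lie farthest to the left and Pdlim1 farthest to the right.

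When the Arp2/3 subunits of both lists were put together, a grouping made after their values were seen, all 6 measured genes were above 0. Arpc1b, a further subunit, was left out because its probe sets carry 2 symbols, and the brighter of them lay the other way, at 2330 in ATCE1-C-del cells and 2761 in empty vector cells. Besides Arpc2, Arpc5 and Actr3 these were Arpc5l at 996 in ATCE1-C-del cells and 810.1 in empty vector cells (ratio 0.30), Arpc1a at 724 and 602.5 (ratio 0.26) and Arpc4 at 614 and 538 (ratio 0.19). With array medians, quantile normalization or lowess 4 of the 6 were above 0, and over the 3 genes with a second measured probe set its median was -0.015. The second probe set lay at -0.015 for Arpc5l and at 0.62 for Arpc4.

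**Figure D5:**
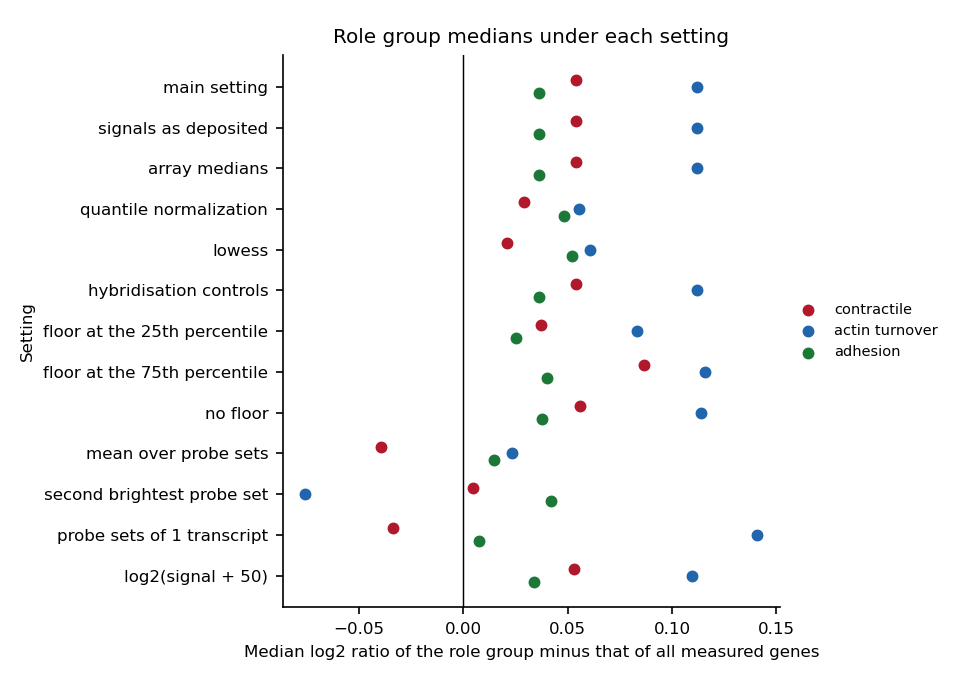
Median log2 ratio of 3 role groups minus the median of all measured genes (horizontal axis) under the main setting and 12 alternatives (rows). The adhesion median stays above 0 in every row, while the contractile median falls below 0 in 2 rows and the turnover median in 1 row, all of them rows that use other probe sets. The signals as deposited, array medians and hybridisation controls shift all ratios alike, so those rows repeat the main setting by construction.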

How the data were processed

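The authors deposited 1 linear intensity per probe set, made with MAS5 per the submitters' processing notes. Its version, target value and masks are not given in the sources used. Each array's mean, with 2% of probe sets trimmed from either end, came to 250.1. The genes and lists were chosen with earlier results of these data known. Of 22690 probe sets, 64 controls stayed out of the comparison. The platform annotation gave 1 symbol for 20393, several for 691 and none for 1606. Signals were divided by that mean, those under an array's median were raised to it, and log2 ratios were taken. With 1 array per group there was no test, so a gene was called at 1.2-fold. The number of arrays sets the limit on precision, and whether the cultures were repeated is not stated. By rule, the text names listed genes past 1.2-fold, the 3 highest and 3 lowest of each role group, those with probe sets at least 0.5 (log2) apart and those not measured, and, in the wider list, genes past 1.5-fold and the extremes of each sublist. Other genes named were chosen after their values were seen. The results of 1 role group and 1 wider sublist are not reported here, though their genes are in the counts over all 45 genes and over the wider list. The procedure was tested on simulated data with planted 1.5-fold changes, a size that none of the 45 genes reached. That test does not show how well smaller changes are called. Alternatives were other scalings, floors, probe set choices and thresholds, and for the wider list they were chosen after seeing the data. The software was Python 3.11.15, numpy 2.4.6, pandas 2.3.3, statsmodels 0.14.6 and matplotlib 3.10.9.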

Additional observations from a re-analysis of the deposited data

How the results depend on the processing

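No paired analysis was possible because each group has a single array, and for that reason no replicate could be left out. Alternatives for the wider list were chosen after seeing the data. Scaling to the hybridisation controls raised every median alike, to 0.32 for contractile, 0.38 for actin turnover and 0.30 for adhesion. It gave 0.32 for all 45 genes and 0.25 for the wider list. Of the 45 genes, 32 were then called higher and 0 lower, and of the 91 in the wider list 45 and 3. The shares of all measured genes in this setting were 50.9% higher and 1.6% lower. The mean over probe sets gave -0.040, 0.023 and 0.012 for contractile, turnover and all 45 genes, and 0.017 for the wider list. Second-brightest probe sets gave -0.063 for turnover and 0.020 for the wider list. Probe sets of 1 transcript gave -0.040 for contractile and 0.019 for the wider list. The wider list median was -0.048 with array medians and 0.0024 with the floor at the 25th percentile. Genes called higher numbered 4 with the floor at the 25th percentile, 2 with no floor, 2 with the mean over probe sets, 3 with second-brightest ones, 2 with probe sets of 1 transcript, 5 at 1.1-fold and 0 at 1.5-fold. Genes called lower numbered 2 with array medians, 0 with the floor at the 75th percentile, where Tagln lies under both floors, 2 with second-brightest probe sets, 2 with probe sets of 1 transcript, 0 with log2(signal + 50), 6 at 1.1-fold and 0 at 1.5-fold. In the wider list, genes called higher numbered 3 of 91 with array medians (7.9%). The floor at the 25th percentile gave 15 of 110 (21.0%). The mean over probe sets gave 8 of 91 (9.01%) and second-brightest ones 10 of 51 (13.1%). Probe sets of 1 transcript gave 10 of 72 (9.78%) and log2(signal + 50) gave 3 of 91 (7.1%). At 1.1-fold there were 22 of 91 (23.1%) and at 1.5-fold 0 of 91 (0.926%). Those called lower numbered 15 and 3 with the floor at the 25th and 75th percentile, 5 with second-brightest probe sets, 5 with probe sets of 1 transcript, 20 at 1.1-fold and 3 at 1.5-fold. Settings that change the probe sets, floor or threshold alter which genes are counted, and beyond that the cause was not tested.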
